A study of Mus musculus with 12 samples.

Results

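The collagen chain genes encode the polypeptides that wind together into the triple-helical proteins of the extracellular matrix. They were followed here in TM3 cells, a Leydig cell line from immature mouse testis, exposed to methoxyacetic acid (MAA), the active metabolite of the industrial solvent ethylene glycol monomethyl ether. Members were all array probes whose annotated transcript is a mouse gene with a symbol of the form Col, a number, a, a number. The gene-name column of the scanner files held transcript accessions for these probes, so the symbols were taken through RefSeq. In this way 56 probes of 36 collagen genes were found among 22072 probes with a symbol, which stand for 15972 genes, and the array held 41174 probes in all. The 36 genes comprised 10 that encode fibrillar chains, 9 that encode network-forming chains and 17 of other kinds. A further 8 RefSeq collagen genes, Col12a1, Col20a1, Col22a1, Col24a1, Col28a1, Col6a3, Col6a4 and Col6a5, had no matched probe and were not analysed here.

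Cells were grown to subconfluence and then kept in plain culture medium or in medium that held MAA at 1 mM or at 5 mM, and RNA was taken after 3, 8 and 24 h. Each of the 6 conditions was measured on 2 dual-colour arrays, which makes 12 arrays on 3 slides, and each array compared RNA pooled from 3 cultures of MAA-treated cells with RNA from control cells of the same time. Replicate 1 carried the MAA sample in green and replicate 2 carried it in red, so that the replicate number is also the dye orientation. The labels do not say whether the control RNA of a time was the same for both doses or for both replicates, and every p-value here measures only the spread between arrays. The cells are 1 established line without the tubules, germ cells or blood vessels of a testis. In such bulk RNA, fewer cells of a kind and less RNA per cell cannot be told apart.

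Between 64.3% and 71.2% of spots on an array were above background in at least 1 channel, and 32 of the 56 collagen probes were so on all 12 arrays, while 8 were above background on none. No collagen spot was saturated. Of 10 probes for 8 Leydig cell markers, 5 were above background on all 12 arrays (those of Cyp17a1, Star, Insl3 and Scarb1), whereas Lhcgr, the luteinizing hormone receptor, was above background on none and Cyp11a1 and Hsd3b1, both steroidogenic enzymes, on 2 arrays each. The line therefore carried part of the marker set of its labelled cell type, and parts of other sets too. By gene, 4 of 8 Leydig markers were above background on all 12 arrays. So were 3 of 7 Sertoli, 3 of 5 smooth muscle and peritubular myoid, and 4 of 6 fibroblast markers. For germ cell, macrophage and endothelial markers it was 1 of 5, 1 of 3 and 0 of 5. These markers do not single out the labelled cell type. Log2 MAA/control ratios of the 2 arrays of a condition correlated across the 24743 probes above background on all arrays with r from 0.732 to 0.863 at 5 mM and from 0.3 to 0.74 at 1 mM. Genes are not independent replicates, and these values only show that the 1 mM ratios at 3 and 8 h were the noisier ones.

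Fibrillar collagens, such as types I, II, III, V and XI, assemble into the banded fibrils that give tissue its tensile strength, with types V and XI buried inside fibrils of the major types. Network-forming collagens include type IV, the scaffold of basement membranes, such as those that enclose the seminiferous tubules. The remaining chains decorate fibrils, form beaded filaments or anchoring fibrils, or span the cell membrane. Chains are hydroxylated, folded and trimmed before enzymes of the lysyl oxidase family crosslink them outside the cell.

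Promoter sequences are shown for the genes on which the results below turn: Col1a2 and Col3a1, whose ratios fell, Col11a1, whose ratio rose, and the pair Col4a1 and Col4a2, which share 1 promoter region and had no call. All are from RefSeq on the mouse build GRCm38.p6, span 250 bases before to 50 bases after the annotated start, and are written 5′ to 3′ on the gene's own strand. Capitals mark exact matches, on either strand, to the letters of a TATA box (TATAAA), a GC box (GGGCGG) or a CCAAT box (CCAAT), which overlap in none of these sequences.
Col1a2, chr6:4505368-4505667, plus strand: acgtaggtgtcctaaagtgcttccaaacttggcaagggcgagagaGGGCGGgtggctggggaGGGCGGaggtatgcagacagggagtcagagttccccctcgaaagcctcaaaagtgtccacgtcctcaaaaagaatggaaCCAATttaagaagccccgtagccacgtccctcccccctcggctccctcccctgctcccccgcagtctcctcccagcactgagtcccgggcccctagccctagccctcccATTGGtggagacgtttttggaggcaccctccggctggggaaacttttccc
Col3a1, chr1:45311288-45311587, plus strand: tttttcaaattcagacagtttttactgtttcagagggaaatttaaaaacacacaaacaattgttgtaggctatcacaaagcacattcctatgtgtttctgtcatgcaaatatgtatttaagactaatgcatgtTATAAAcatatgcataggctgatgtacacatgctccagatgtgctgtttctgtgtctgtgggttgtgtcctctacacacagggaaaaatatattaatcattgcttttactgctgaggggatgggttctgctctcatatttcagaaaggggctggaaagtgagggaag
Col11a1, chr3:114030290-114030589, plus strand: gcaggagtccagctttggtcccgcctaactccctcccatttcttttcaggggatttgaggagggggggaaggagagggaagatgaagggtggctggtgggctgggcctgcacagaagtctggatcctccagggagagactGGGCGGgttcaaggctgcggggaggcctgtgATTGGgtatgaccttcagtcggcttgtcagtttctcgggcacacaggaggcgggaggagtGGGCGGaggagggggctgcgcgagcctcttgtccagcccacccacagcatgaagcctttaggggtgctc
Col4a1, chr8:11312777-11313076, minus strand: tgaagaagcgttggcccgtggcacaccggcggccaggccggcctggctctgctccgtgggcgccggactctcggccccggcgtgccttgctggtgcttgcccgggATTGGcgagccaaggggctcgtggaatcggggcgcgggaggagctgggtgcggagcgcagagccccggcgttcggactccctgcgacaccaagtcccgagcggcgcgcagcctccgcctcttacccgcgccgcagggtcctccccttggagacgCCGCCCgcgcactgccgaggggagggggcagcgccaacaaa
Col4a2, chr8:11312555-11312854, plus strand: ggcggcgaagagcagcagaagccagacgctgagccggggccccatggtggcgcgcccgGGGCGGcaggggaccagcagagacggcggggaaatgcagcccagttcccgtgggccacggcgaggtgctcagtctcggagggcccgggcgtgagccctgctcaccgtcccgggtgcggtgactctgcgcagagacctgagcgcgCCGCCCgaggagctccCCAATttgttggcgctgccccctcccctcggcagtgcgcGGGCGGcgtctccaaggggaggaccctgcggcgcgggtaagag

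The Col1a2 promoter held 2 GC boxes and 2 CCAAT boxes, that of Col11a1 held 2 GC boxes and 1 CCAAT box, and that of Col3a1 held 1 TATA box and no GC box. The GC content was 61% for Col1a2, 62.3% for Col11a1 and 37.7% for Col3a1. Col4a1 and Col4a2 lie head to head, with starts 21 bases apart on opposite strands and each start inside the other annotated gene. The windows printed overlap by 78 bases. In all, 29 of the 36 genes had an entry, with 32 promoters among them. A GC box was present in 21 of these 32 (65.6%), against 35.7% of 32851 mouse promoters of the same length. A TATA box was present in 5 (15.6%, against 13.6%) and a CCAAT box in 12 (37.5%, against 37.4%). These matches describe letters in a window and say nothing about whether a factor binds there.

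Across all collagens, the called changes went in both directions. A probe was called changed at an unadjusted p under 0.005 in a limma fit over all probes, together with a fold threshold that followed the study: more than 2 for the 5 mM arrays and more than 1.5 for the 1 mM arrays. By this rule 12 probes of 10 genes were called in at least 1 condition. The share of all probes called in at least 1 condition was not computed, so this count is given only to name the genes. At 5 mM, 1 collagen probe rose and 0 fell at 3 h (against 2.02% and 1.74% of all probes), 3 rose and 5 fell at 8 h (all probes 3.06% and 2.49%), and 2 rose and 5 fell at 24 h (all probes 3.85% and 1.77%). As shares of the 56 collagen probes, the falls at 8 and 24 h were 8.93% each and the rises 5.36% and 3.57%. At 1 mM, 1 rose and 0 fell at 3 h (all probes 1.32% and 0.627%), 2 rose and 0 fell at 8 h (all probes 1.72% and 0.656%), and 4 rose and 1 fell at 24 h (all probes 3.26% and 1.41%). Where limma called no collagen probe down, at 5 mM for 3 h and at 1 mM for 3 and 8 h, 15, 10 and 8 collagen probes were at an unadjusted p under 0.05 in either direction. Here and below, counts at that p stand without the share of all probes and are not read as responses. The number called depended on how the signals were processed. A normexp background correction with loess was also run in place of the scanner software's processed signals. It gave 4 called collagen probes at 5 mM 8 h and 1 at 5 mM 24 h. Which of the changed steps mattered was not tested.

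**Figure D1:**
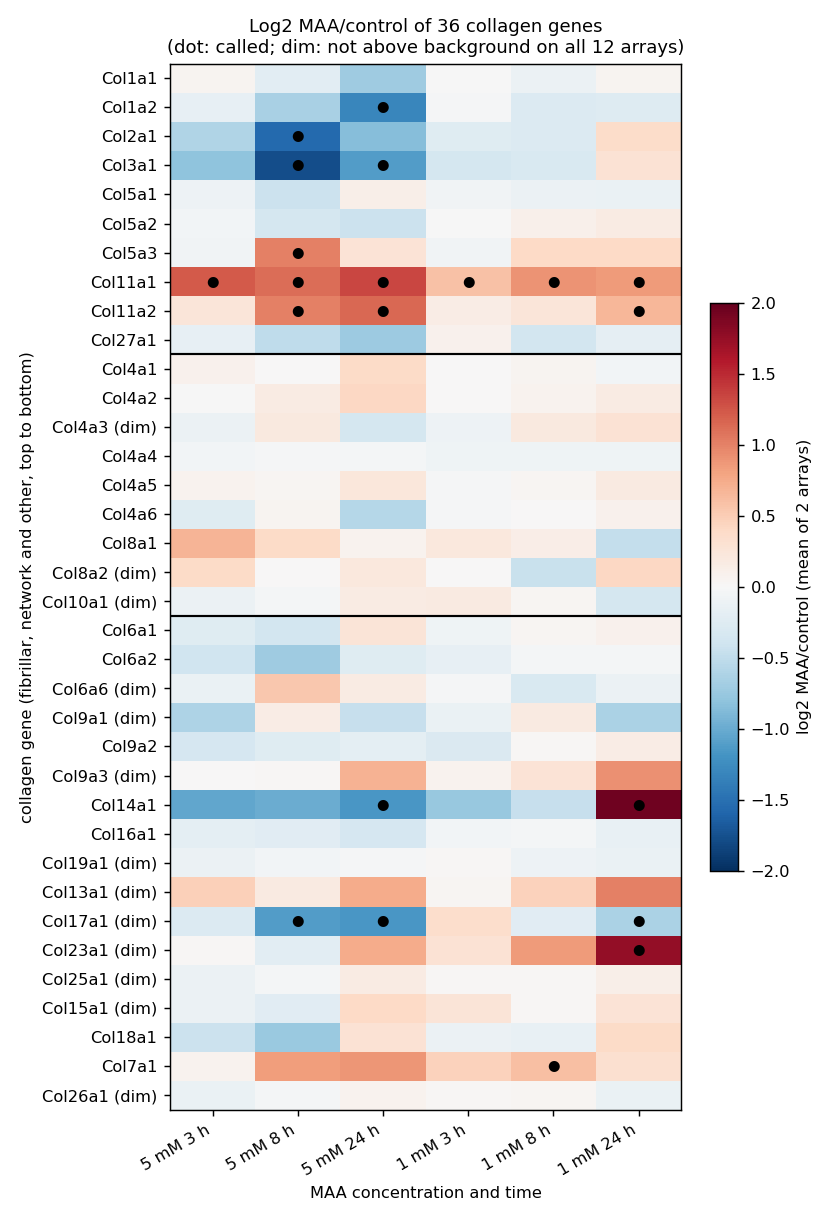
Mean log2 MAA/control over 2 arrays (colour, blue lower and red higher in MAA-treated cells) for the probe of highest signal of each of 36 collagen genes (rows, fibrillar, network and other from top to bottom) in 6 conditions (columns); dots mark called values and "dim" marks genes not above background on all 12 arrays. Col11a1 is called in every column, calls among fibrillar genes go both ways, and no network gene is called.

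Of the 4 chains of the major fibrils, Col3a1, Col1a2 and 1 of 2 probes of Col2a1 were called down at 5 mM MAA, and Col1a1 was not called. Col3a1, the single chain of type III collagen, reached its lowest ratio at 8 h, whereas Col1a2 and Col1a1, the 2 chains of type I collagen, were lowest at 24 h. Col2a1, the chain of type II collagen, which is best known from cartilage, was lowest at 8 h like Col3a1. At 1 mM none of the 4 was called at any time.

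For Col3a1 the log2 ratios on replicates 1 and 2 at 5 mM were -0.78 and -0.83 at 3 h, -1.89 and -1.67 at 8 h, and -1.33 and -0.91 at 24 h. At 1 mM they were -0.50 and -0.20, -0.41 and -0.20, and 0.14 and 0.42 at the same times. All 6 arrays at 5 mM were thus lower than all 6 at 1 mM, and the 1 mM ratios at 24 h were above 0. The mean was -1.78 ± 0.13 (limma SE, 2 arrays) at 5 mM 8 h, a 3.43-fold lower level (limma adjusted p = 6.77e-05), and -1.12 at 24 h, 2.17-fold lower (limma adjusted p = 0.000591). At 3 h the mean of -0.81 did not reach the 2-fold threshold (limma adjusted p = 0.0034). The dimmer probe of Col3a1 gave -1.55 at 8 h, also called, and -0.78 at 24 h, not called. The 24 h call of the brighter probe was lost without replicate 1, where replicate 2 alone gave -0.91, and with normexp at about the same ratio (-1.10).

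For Col1a2 the log2 ratios on replicates 1 and 2 at 5 mM were -0.20 and -0.12 at 3 h, -0.65 and -0.66 at 8 h, and -1.59 and -1.02 at 24 h. The 1 mM ratios were -0.18 and 0.14, -0.33 and -0.20, and -0.52 and 0.00. The decline at 5 mM deepened from one time to the next on both arrays, while the 1 mM replicates at 24 h differed by as much as their distance from 0. The mean at 5 mM 24 h was -1.30 ± 0.16, a 2.47-fold lower level (limma adjusted p = 0.000811), and at 8 h it was -0.66 (limma adjusted p = 0.0184), short of 2-fold. With normexp the 24 h ratio was -1.26 and its p no longer passed.

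Col1a1 changed less than its partner chain. Its log2 ratios at 5 mM were -0.02 and 0.13 at 3 h, -0.20 and -0.23 at 8 h, and -0.77 and -0.64 at 24 h. The mean of -0.70 ± 0.09 at 24 h had a limma adjusted p of 0.00109 but did not reach 2-fold, so Col1a1 was not called. Its other probes gave -0.49 and -0.50 in that condition. At 1 mM its ratios lay between -0.17 and 0.24 on all 6 arrays.

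For Col2a1 the log2 ratios at 5 mM were -0.57 and -0.65 at 3 h, -1.65 and -1.46 at 8 h, and -0.87 and -0.84 at 24 h. At 1 mM they were -0.20 and -0.28, -0.32 and -0.23, and 0.38 and 0.36. The ratio thus fell and partly returned at 5 mM, and lay above 0 on both arrays at 1 mM 24 h. The 8 h mean of -1.55 ± 0.07 was a 2.93-fold lower level (limma adjusted p = 1.02e-05). This probe, printed in 10 spots on each array, and a dimmer second probe of Col2a1 disagreed: the second gave -0.21, -0.17 and -0.19 at 3, 8 and 24 h of 5 mM and was not called. The fall of Col2a1 is therefore a result of 1 probe, and the files do not show which transcript region each probe covers.

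Markers of fibroblasts, cells that make much fibrillar collagen, had ratios on both sides of 0 at 5 mM 8 h. Of 8 probes for 6 fibroblast markers, Dcn (decorin) was called down at 8 h with -1.24 on the log2 scale, and a Thy1 probe, whose control channel was not above background, was called up. Lum (lumican) at -0.94 and the brighter probe of Pdgfra at -0.97 were not called, and Lum was called down at 3 h with -1.54. The dimmer Pdgfra probe (-0.28), S100a4 (-0.42) and Postn (0.92) were not called at 8 h either. A second Thy1 probe (0.77) was above background on no array. After the Aquantile normalization described below, the linear channel signals of the 6 genes summed to 201000 to 222000 in the 8 h controls and 137000 to 139000 at 5 mM 8 h. At 3 h the sums were 171000 to 195000 and 145000 to 155000. Linear sums mostly reflect the brightest genes: mean signals were 115800 for S100a4, 47270 for Dcn and 41610 for Pdgfra. Those of Lum, Postn and the brighter Thy1 probe were 157.5, 23.11 and 10.69. The part of these markers in the lower Col3a1 and Col2a1 ratios was not tested.

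Of the minor fibrillar chains, 3 were called and all of these rose. Col11a1, the alpha 1 chain of type XI collagen, rose in all 6 conditions, the one collagen gene to do so. Col11a2, its partner chain, rose at 8 and 24 h of 5 mM and at 24 h of 1 mM, and Col5a3, a type V chain, at 5 mM 8 h. Col5a1 and Col5a2, the common type V chains, and Col27a1, a fibrillar chain of developing cartilage, were not called in any condition, with some ratios below 0 at 5 mM.

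For Col11a1 the log2 ratios at 5 mM were 1.43 and 1.02 at 3 h, 1.08 and 1.17 at 8 h, and 1.34 and 1.32 at 24 h. The 1 mM arrays gave 0.70 and 0.48, 0.96 and 0.83, and 0.86 and 0.84. Every array lay above 0 and every 5 mM array above every 1 mM array. The mean fold was 2.34 at 3 h, 2.18 at 8 h and 2.51 at 24 h of 5 mM, while the 1 mM folds were 1.5, 1.86 and 1.8 (log2 SE 0.10, limma adjusted p from 9.65e-05 to 0.0225). The lowest of these, at 1 mM 3 h, was not called with normexp (0.31), from the deposited ratio table (0.58), with the slide as a block (0.55) or without replicate 1 (0.48). The dimmer second probe of Col11a1, above background on 7 of 12 arrays, was not called in any condition, with means from 0.01 to 1.06.

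For Col11a2 the log2 ratios at 5 mM were 0.53 and -0.03 at 3 h, 0.93 and 1.08 at 8 h, and 1.22 and 1.06 at 24 h. At 1 mM they were 0.27 and 0.01, 0.28 and 0.21, and 0.64 and 0.69. The replicates were close together except at 3 h, where those at 5 mM lay on either side of 0. The folds of the called conditions were 2.01 at 5 mM 8 h (limma adjusted p = 0.000862), 2.21 at 5 mM 24 h (limma adjusted p = 0.000519) and 1.59 at 1 mM 24 h (limma adjusted p = 0.0182). With normexp the 3 ratios were 0.78, 0.96 and 0.36 and none was called, the 8 h call was also lost with each array centred on its median (0.98) or without replicate 2 (0.93), and the 1 mM call was lost without either replicate. A dim second probe of Col11a2, above background on 6 of 12 arrays, was not called.

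Col5a3 gave log2 ratios at 5 mM of 0.36 and -0.50 at 3 h, 0.79 and 1.23 at 8 h, and 0.25 and 0.29 at 24 h. On the 1 mM arrays they were 0.02 and -0.16, 0.18 and 0.60, and 0.30 and 0.49. The 8 h mean of 1.01 ± 0.20 was just past 2-fold (2.01-fold, limma adjusted p = 0.00733). This call was lost with normexp (0.655), with centring (0.98), in a fit of only the 6 arrays of 5 mM, and without replicate 2 (0.79).

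Among the type V chains not called, Col5a1 had log2 ratios at 5 mM of 0.04 and -0.26 at 3 h, -0.39 and -0.48 at 8 h, and 0.23 and 0.01 at 24 h. Col5a2 had 0.10 and -0.20, -0.35 and -0.35, and -0.34 and -0.51 at these times. Both were below 0 on both arrays at 8 h, with means of -0.43 for Col5a1 (limma adjusted p = 0.0099) and -0.35 for Col5a2 (limma adjusted p = 0.0327). Col5a2 was also below 0 at 24 h, at -0.43 (limma adjusted p = 0.0143). At 1 mM their ratios lay between -0.20 and 0.20 on all arrays. Col27a1 had means of -0.16, -0.51 and -0.72 at 3, 8 and 24 h of 5 mM, the last with a limma adjusted p of 0.0163 and short of 2-fold.

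**Figure D2:**
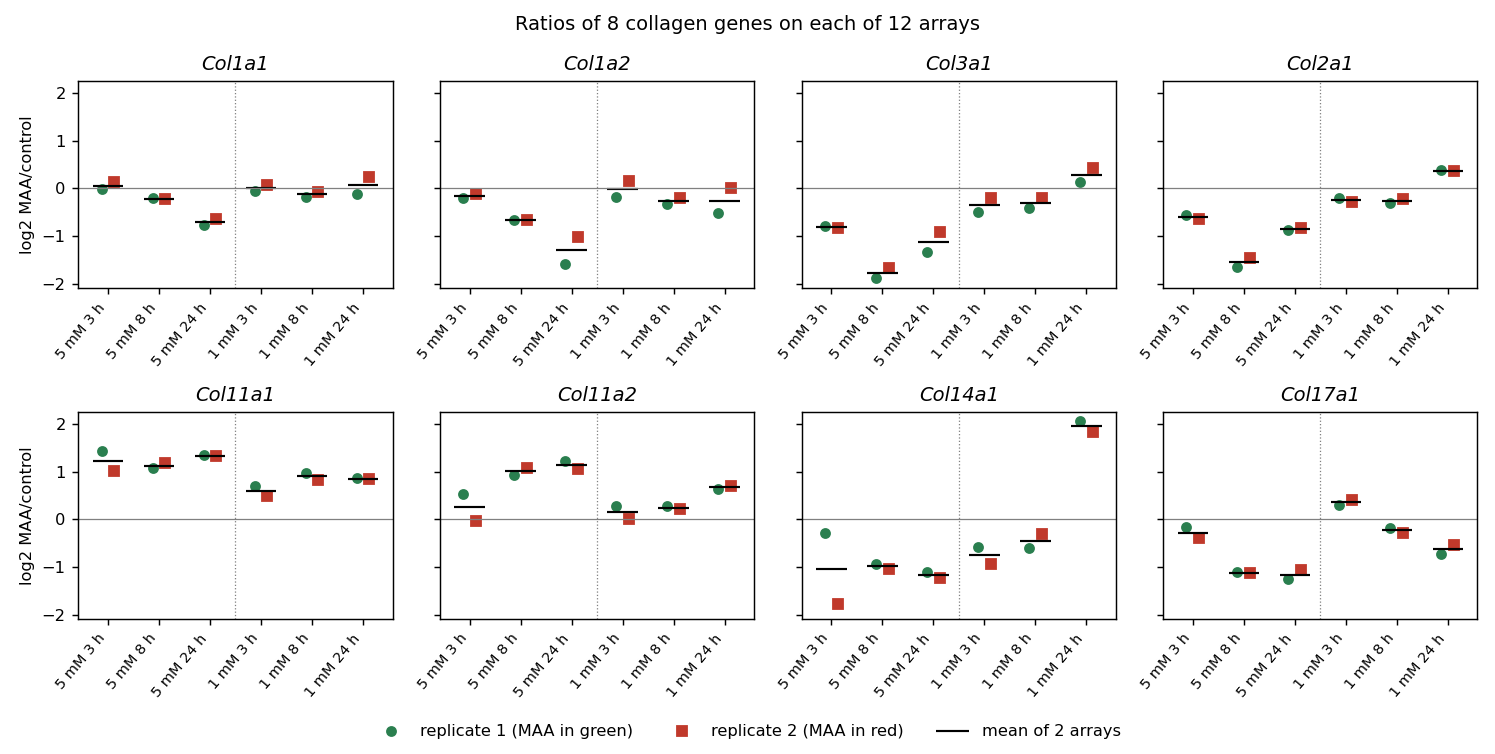
Log2 MAA/control of 8 collagen genes on each of the 12 arrays, grouped by condition on the horizontal axis; circles are replicate 1 (MAA in green), squares replicate 2 (MAA in red) and bars the mean of both. Col3a1 and Col2a1 are lowest at 5 mM 8 h, Col1a2 and Col1a1 at 5 mM 24 h, Col11a1 lies above 0 throughout, and Col14a1 lies near 2 at 1 mM 24 h and below 0 elsewhere.

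No network-forming collagen was called: limma called 0 of 13 probes of 9 network genes in any condition, although 6 of the 9 genes were above background on all arrays. At an unadjusted p under 0.05 there were 6 network probes in at least 1 condition, 5 of them at 5 mM 24 h. No share of all probes at that p is given beside this count. With 0.627% to 3.85% of all probes called in a given condition and direction, a count of 0 among 13 probes is near that background and is not read as a difference from the fibrillar genes. Col4a1 and Col4a2 encode the 2 chains of the common basement membrane type IV collagen and are read on opposite strands from the promoter region shown above. Their ratios were nearly the same. For Col4a1 they were -0.03 and 0.19 at 3 h, 0.00 and 0.03 at 8 h, and 0.35 and 0.41 at 24 h of 5 mM. For Col4a2 they were -0.12 and 0.11, 0.07 and 0.25, and 0.28 and 0.55. At 24 h both genes lay above 0 on both arrays, and at 3 h the replicates of each lay on either side of 0. Their 24 h means of 0.38 ± 0.07 (limma adjusted p = 0.00529) and 0.42 ± 0.12 (limma adjusted p = 0.0308) stayed short of 2-fold, and their second probes gave 0.35 and 0.49. At 1 mM the means of Col4a1 lay between -0.06 and 0.06 and those of Col4a2 between 0.00 and 0.17.

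Other type IV chains were close to 0 or uncertain. Col4a5, an X-linked basement membrane chain, had means between -0.02 and 0.22 over the 6 conditions. Col4a6, its neighbour with a start 1343 bases away on the other strand, had -0.57 at 5 mM 24 h (limma adjusted p = 0.0825). This came mostly from replicate 1, where the normalized log2 signals of the MAA and control channels were 7.4 and 8.508. On replicate 2 they were 7.18 and 7.216. A second Col4a6 probe had the opposite sign there, with mean channel signals of 7.169 and 7.105. Col4a4 stayed between -0.09 and -0.02 in all conditions. Col8a1, a short-chain network collagen of vessels and cornea, had 0.68 at 5 mM 3 h (limma adjusted p = 0.00572, short of 2-fold) and -0.47 at 1 mM 24 h (limma adjusted p = 0.0525). Col4a3, Col8a2 and Col10a1 were above background on 4 arrays, 1 array and none.

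Set side by side, the median log2 ratio of the 10 fibrillar genes at 5 mM was -0.09 at 3 h, -0.39 at 8 h and -0.57 at 24 h. That of the 9 network genes was -0.01, 0.04 and 0.17, that of the 17 other collagens -0.13, -0.22 and 0.17, and that of all probes -0.10, -0.04 and 0.03. Several network and other genes were not above background on all arrays. Without them the medians were 0.03, 0.05 and 0.15 for 6 network genes. They were -0.34, -0.37 and -0.20 for 7 other collagens, so the sign of the latter at 24 h depended on dim genes. All 10 fibrillar genes were above background. At 8 and 24 h of 5 mM, 7 and 6 of the 10 fibrillar genes lay below 0, and 3 and 2 were called up. The fibrillar median moved away from the network median at 5 mM. The difference between them was 0.09 and -0.21 on replicates 1 and 2 at 3 h, -0.43 and -0.59 at 8 h, and -0.64 and -0.63 at 24 h. At 3 h the replicates had opposite signs. At 1 mM the fibrillar medians were -0.01, -0.12 and 0.23 and the network medians 0.00, 0.04 and 0.09 at 3, 8 and 24 h, with a difference of 0.16 and 0.15 on the replicates at 24 h. From the mean ratios of each gene the difference at 5 mM 24 h was -0.74, and it was -0.444 with normexp, a change of over 1.5 times. These medians describe the lists and were given no test.

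**Figure D3:**
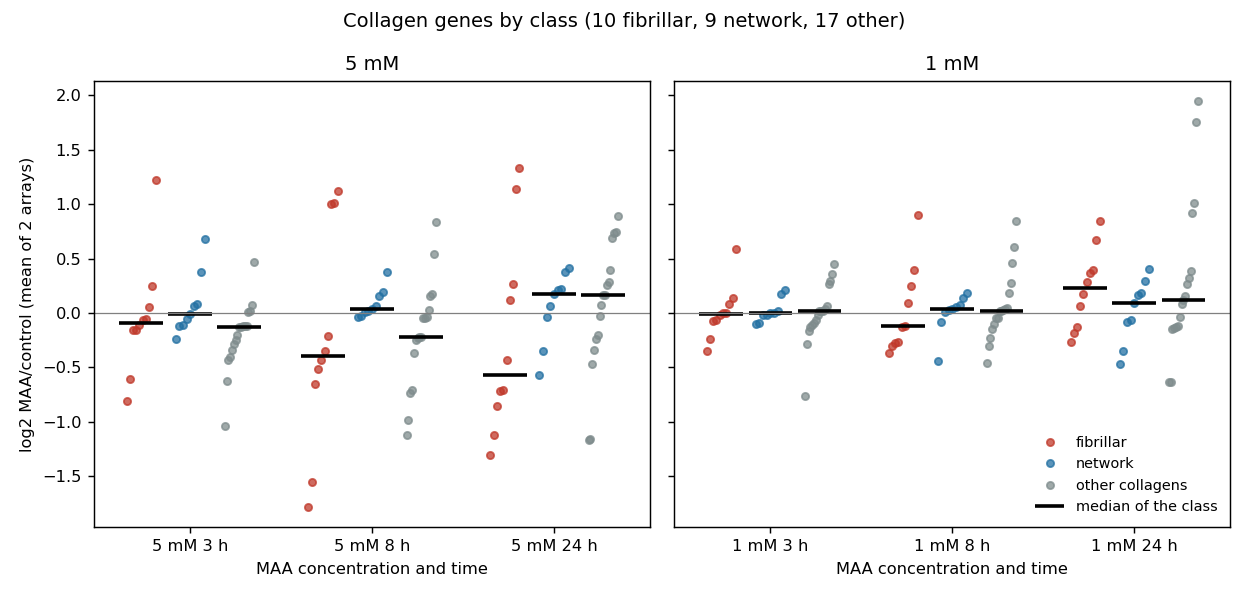
Mean log2 MAA/control (vertical axis, 2 arrays) of each of 10 fibrillar, 9 network and 17 other collagen genes (points) by concentration and time; bars mark the median of a class. At 5 mM 24 h the fibrillar median is -0.57 and the network median 0.17, with 2 fibrillar genes above 1.

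Of the other collagens, Col14a1, Col17a1 and Col23a1 gave the widest called responses. All were of low mean signal (128.1, 68.12 and 12.77), and the other fibril-associated and membrane-spanning genes were not called. Col14a1, a fibril-associated chain, had opposite calls at the 2 doses at 24 h. Its log2 ratios at 5 mM were -0.29 and -1.78 at 3 h, -0.93 and -1.04 at 8 h, and -1.11 and -1.23 at 24 h. At 1 mM they were -0.59 and -0.93 at 3 h, -0.60 and -0.31 at 8 h, and 2.05 and 1.84 at 24 h. Thus 10 of 12 arrays lay below 0 and the 2 arrays of 1 mM 24 h near 2. The mean of 1.95 ± 0.29 at 1 mM 24 h was a 3.85-fold higher level (limma adjusted p = 0.00704), still called with normexp at 1.30, and the mean of -1.17 at 5 mM 24 h was 2.25-fold lower (limma adjusted p = 0.0193). The call at 5 mM 24 h lay at an unadjusted limma p of 0.00454 and was lost with normexp (-0.659), from the deposited table (-1.16), in a fit of the 6 arrays of 5 mM, and when any 1 of 10 of the 12 arrays was left out. At 5 mM 3 h the replicates differed by over 1 log2 unit and the mean of -1.03 was not called. The MAA channel of Col14a1 was above background on 1 of the 2 arrays of 5 mM 3 h and on all others. A second probe of Col14a1 was above background on no array.

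Some markers of other cell types were also called at 24 h, and not always in the direction of Col14a1. Every marker list held a called probe at 5 mM 24 h, and at 1 mM 24 h all but the germ cell list did. Such calls were thus not particular to the lists described next. Of the 8 fibroblast marker probes, 3 rose and 1 fell at 1 mM 24 h (all probes 3.26% and 1.41%). Dcn rose by 1.08, Lum by 2.29 and Postn (periostin) by 2.19 on the log2 scale, and S100a4 fell by 0.71. At 5 mM 24 h Lum (1.89) rose and S100a4 (-1.12) fell, while Dcn was at -0.57. Thy1 was at least 2.49-fold higher there, with no control channel above background, and Postn was called up with its control channel above background on 1 of 2 arrays. The channel signals of the 6 genes summed to 246000 to 310000 in the 24 h controls, 272000 to 289000 at 1 mM 24 h and 158000 to 191000 at 5 mM 24 h. As said above, S100a4, Dcn and Pdgfra made up most of these sums, so the sums do not describe the 6 genes alike. All 6 were above background on some arrays, Thy1 on 4 and Postn on 8. Of 8 probes for 5 smooth muscle and peritubular myoid markers, 5 rose at 1 mM 24 h (all probes 3.26%). Acta2, smooth muscle actin, had 3 probes, of which the brightest gave 0.29 and was not called, and the others gave 0.77 and 1.43 and were called. The summed level of the 5 genes was 22200 to 24000 in the 24 h controls, 27100 to 29000 at 1 mM and 31500 to 33300 at 5 mM. This sum was mostly Acta2, whose brightest probe had a mean signal of 20910. The part of these cell types in the Col14a1 result was not tested.

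Col17a1, a membrane-spanning collagen of hemidesmosomes, fell at 8 and 24 h of 5 mM and at 24 h of 1 mM. Its log2 ratios at 5 mM were -1.11 and -1.13 at 8 h and -1.25 and -1.07 at 24 h, and at 1 mM they were 0.30 and 0.41 at 3 h, -0.18 and -0.28 at 8 h, and -0.72 and -0.54 at 24 h. At 5 mM 3 h neither channel was above background. The replicates were close together in every measured condition. The falls were 2.18-fold at 5 mM 8 h (limma adjusted p = 6.82e-05), 2.24-fold at 5 mM 24 h (limma adjusted p = 7e-05) and 1.55-fold at 1 mM 24 h (limma adjusted p = 0.00415). With normexp the ratios were -0.54, -0.558 and -0.277 and none was called, and without replicate 1 the 1 mM ratio of -0.54 was not. A dimmer second probe was called down at 8 and 24 h of 5 mM, where its MAA channel was not above background: its level was at least 1.29-fold and at least 1.57-fold lower, a bound set by the weakest signal called above background on the array (limma adjusted p = 0.00758 and 0.0134).

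Col7a1, the chain of the anchoring fibrils that fasten epithelium to the matrix below, had ratios above 0 on 11 of 12 arrays. At 5 mM they were 0.17 and -0.03 at 3 h, 0.73 and 0.94 at 8 h, and 0.78 and 1.00 at 24 h, and the lower dose gave 0.54 and 0.37, 0.57 and 0.64, and 0.35 and 0.30. It was called up at 1 mM 8 h, at 1.52-fold (log2 0.61 ± 0.09, limma adjusted p = 0.0112). The larger ratios at 5 mM, 0.83 at 8 h (limma adjusted p = 0.000327) and 0.89 at 24 h (limma adjusted p = 0.000276), fell short of the 2-fold threshold set for that dose. The 1 mM call was lost with normexp (0.478) and without replicate 2 (0.57).

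Col23a1, another membrane-spanning chain, was above background on the 4 arrays of 24 h and on no other. Its ratios were 1.13 and 0.36 at 5 mM, and at 1 mM they were 1.80 and 1.71, and only the latter was called (3.37-fold, limma adjusted p = 0.0134). The call was lost with normexp (0.431), in a fit of the 6 arrays of 1 mM and without either replicate. Col13a1, a related membrane-spanning chain, had no control channel above background in any condition. Its level was at least 1.66-fold higher at 1 mM 24 h and was not called (limma adjusted p = 0.076).

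Chains of the remaining kinds were not called. Col6a1 and Col6a2, the type VI chains that form beaded filaments around cells, had log2 ratios at 5 mM 8 h of -0.40 and -0.34 and of -0.89 and -0.51. At 24 h they were 0.30 and 0.22 for Col6a1 and -0.44 and -0.04 for Col6a2. Col6a1 thus lay below 0 on both arrays at 8 h and above 0 on both at 24 h. At 5 mM 8 h the means were -0.37 (limma adjusted p = 0.00553) and -0.70 (limma adjusted p = 0.00704), and at 1 mM all means of both genes lay between -0.17 and 0.09. Col18a1, a basement membrane chain whose end fragment is endostatin, went from -0.43 at 3 h and -0.74 at 8 h to 0.29 at 24 h of 5 mM, with -0.44, -0.63 and 0.20 on its second probe. Col16a1, a fibril-associated chain, had -0.20, -0.23 and -0.34 at these times. The other 8 genes of this group (Col6a6, Col9a1, Col9a2, Col9a3, Col15a1, Col19a1, Col25a1 and Col26a1) had no call, and of them Col9a2 alone was above background on all 12 arrays.

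Differences between doses and times were tested as contrasts in the same fit, at a limma adjusted p under 0.05 over all probes. The ratio of a dose at a time is set against the other dose, and the arrays of both may share control RNA. At 3 h, 2 of 56 collagen probes differed between 5 mM and 1 mM, both lower at 5 mM (3.40% of all probes differed). These were the dimmer probe of Col3a1 and the probe of Col17a1, whose channels were not above background at 5 mM. With the slide as a block neither differed. At 8 h, 8 probes differed, 7 of them lower at 5 mM (10.1% of all probes), and the count was 5 with each array centred on its median and 4 without any 1 array of 8 h. At 24 h, 12 differed, 9 of them lower at 5 mM (8.41% of all probes), and the count was 4 with each array centred on its median. Without replicate 2 of 1 mM 24 h it was 3.

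The genes of the major fibrils were among those that separated the doses. At 24 h the difference of 5 mM minus 1 mM in log2 ratio was -0.76 for Col1a1, -1.04 for Col1a2, -1.22 for Col2a1 and -1.40 for Col3a1, with limma adjusted p from 0.00111 to 0.0352. At 8 h it was -1.28 for Col2a1 and -1.47 for Col3a1 (limma adjusted p = 0.000986 and 0.00459). Col14a1 had the widest difference of the named genes, -3.12 at 24 h (limma adjusted p = 0.00581), followed by Col3a1 at 8 h. Col4a1 was higher at 5 mM by 0.44 at 24 h (limma adjusted p = 0.0386). For Col11a1 the dose difference was 0.64, 0.23 and 0.48 at 3, 8 and 24 h and did not pass (limma adjusted p = 0.0646, 0.452 and 0.0919), with an SE of 0.15.

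**Figure D4:**
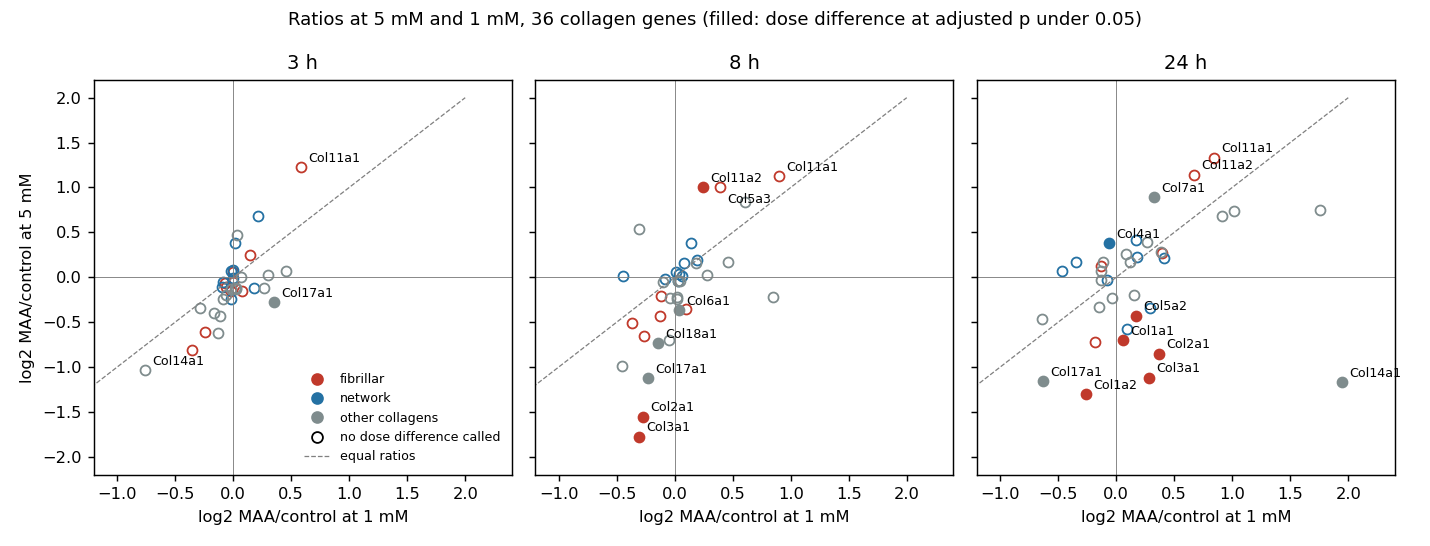
Mean log2 MAA/control at 5 mM (vertical axis) against 1 mM (horizontal axis) at 3, 8 and 24 h for 36 collagen genes, coloured by class; filled points differ between doses at a limma adjusted p under 0.05 and the dashed line marks equal ratios. At 24 h Col1a1, Col1a2, Col2a1, Col3a1 and Col14a1 lie below the line, and Col14a1 lies at 1.95 at 1 mM and -1.17 at 5 mM.

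Over time at 5 mM, 5 collagen probes differed between 8 and 3 h, 1 higher and 4 lower at 8 h (5.10% of all probes). The same contrast gave 0 with the slide as a block and 0 with only the 6 arrays of 5 mM in the fit, 8 over probes above background on all arrays, and 1 without either array of 5 mM 8 h. Between 24 and 8 h, 6 differed and all were higher at 24 h (8.91% of all probes), which was 0 with only the arrays of 5 mM, 3 with centring and 2 without replicate 1 of 5 mM 8 h. Between 24 and 3 h, 9 differed, 6 higher and 3 lower (15.8% of all probes), and the count was 3 with only the arrays of 5 mM or without replicate 1 of 5 mM 24 h. The 6 probes higher at 24 than at 8 h were of Col2a1 (0.70), Col3a1 (its second probe, 0.77), Col5a1 (0.56), Col6a1 (0.63) and Col18a1 (1.02 and 0.83). Their limma adjusted p ran from 0.00199 to 0.0432. The brightest probe of Col3a1 and the second probes of Col2a1 and Col5a1 were not among them. A count of 6 of 56 is near the 8.91% of all probes and is not read as a return of collagen ratios. Col1a1 and Col1a2 were lower at 24 h than at 3 h, by -0.76 and -1.14 (limma adjusted p = 0.0092 and 0.0155). At 1 mM, limma found 0 collagen probes that differed between 8 and 3 h (0% of all probes), with 3 at an unadjusted p under 0.05. It found 1 between 24 and 8 h (0.576% of all probes) and 4 between 24 and 3 h, 3 higher and 1 lower (1.85% of all probes). The 4 were Col2a1, Col14a1, Col17a1 and the second probe of Col3a1, and their number was 1 with centring, 0 with only the 1 mM arrays and 0 without any 1 array of 3 or 24 h at 1 mM. The 1 between 24 and 8 h was lost without any 1 of 10 of the 12 arrays.

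Collagen transcripts also moved with time in the control cells, which are the denominators of these ratios. On the control channel, placed on a common scale by Aquantile normalization, 4 values per time were available, which may come from the same RNA on several arrays and are given without a test. Among the 23 collagen genes above background on all arrays, 16 had all 4 values at 24 h above all 4 at 3 h, against 31.8% of 23994 probes. For 1 gene, Col7a1, all 4 were below, against 38.1% of probes. The 16 comprised 7 of 10 fibrillar, 4 of 6 network and 5 of 7 other collagen genes. The median difference between 24 and 3 h was 0.69 on the log2 scale over the 23 genes and -0.05 over all probes. With each array's processed control signal centred on its median instead, 14 of the 23 genes lay above and 0 below, and 32.3% of probes above.

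By the brightest probe of each gene, the largest of these control increases were in Col5a3, Col11a1 and Col14a1. The control signal of Col5a3 lay between 4.15 and 4.745 at 3 h and between 7.51 and 7.64 at 24 h on the log2 scale, an 8.43-fold increase. That of Col11a1 lay between 8.175 and 8.375 at 3 h, 10.41 and 10.55 at 8 h, and 10.69 and 10.79 at 24 h, 5.58-fold from first to last. Most of the Col11a1 increase therefore lay between 3 and 8 h. Col14a1 increased 4.4-fold, Col6a2 2.87-fold, Col6a1 2.37-fold and Col16a1 2.21-fold. Col1a2 increased 1.4-fold, and the values of the brightest probes of Col1a1 and Col3a1 at 24 and 3 h overlapped. Their dimmer probes did not. The second Col3a1 probe lay between 8.21 and 8.33 at 3 h and between 9.05 and 9.16 at 24 h, and a second Col1a1 probe between 14.43 and 14.56 and between 15.64 and 15.89. Probes of 1 gene thus differed in how the control level moved.

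**Figure D5:**
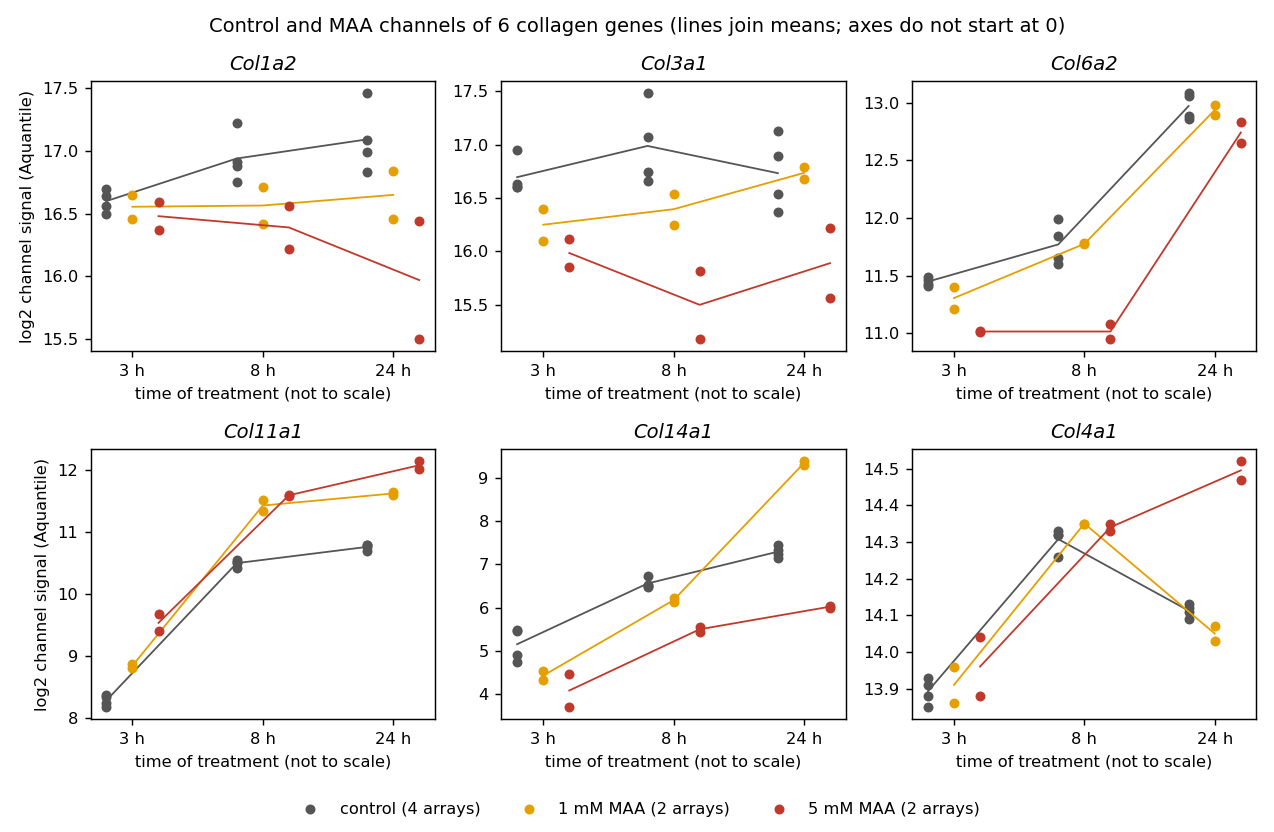
Log2 signal of the control channel (grey, 4 arrays per time) and the MAA channel at 1 mM (orange) and 5 mM (red, 2 arrays each) after Aquantile normalization, at 3, 8 and 24 h for 6 collagen genes; lines join means, the time axis is not to scale and the vertical axes do not start at 0. Control values of Col11a1, Col14a1 and Col6a2 at 24 h lie above all those at 3 h, while those of the brightest Col3a1 probe overlap.

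Of 40 genes listed for hydroxylation, folding and export, trimming, crosslinking or binding of collagen, 36 had a probe (46 probes, 37 of them above background on all arrays and 3 on none), and Adamts3, Adamts14, Itga1 and Itga10 had none. At 5 mM, 0 of 46 were called at 3 h, 1 fell at 8 h, and 2 rose and 1 fell at 24 h, and at 1 mM 1 fell at 3 h, 1 rose at 8 h and 2 rose at 24 h. These counts of 0 to 2 of 46 are near the 0.627% to 3.85% of all probes called per condition and direction. All were probes of Lox and Loxl4, which oxidise lysines so that chains can be crosslinked. Limma called none of 13 hydroxylase probes, 14 of glycosylation, folding and export, 7 of propeptide cleavage and 6 of receptors and uptake in any condition, while 11, 10, 5 and 5 of these were at an unadjusted p under 0.05 in at least 1 condition. At 5 mM 3 h, 13 of the 46 pathway probes were at an unadjusted p under 0.05. These counts too stand without the share of all probes at that p and are not read as responses.

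For Lox, the lysyl oxidase, the log2 ratios at 5 mM were -0.64 and -1.25 at 3 h, -1.62 and -1.501 at 8 h, and -1.38 and -1.42 at 24 h. At 1 mM they were -0.08 and -0.47, -0.15 and -0.07, and -0.48 and -0.50. All 6 arrays of 5 mM were lower than all 6 of 1 mM. The means of -1.56 at 8 h (limma adjusted p = 0.000168) and -1.40 at 24 h (limma adjusted p = 0.000314) were called. Loxl4, a lysyl oxidase-like enzyme, rose instead: its brighter probe had -0.30 and -0.17 at 5 mM 3 h, 0.425 and 0.48 at 8 h, and 1.28 and 1.30 at 24 h, and at 1 mM 0.37 and 0.21, 0.32 and 0.55, and 1.14 and 1.17. The 24 h means of 1.29 and 1.15 were called at both doses (limma adjusted p = 3.5e-05 and 0.000341). On the dimmer probe no control channel was above background at 24 h, where it was called up at both doses, at least 2.2-fold at 5 mM and at least 1.82-fold at 1 mM. The dimmer probe was called down at 1 mM 3 h, although on replicate 1 neither channel was above background. There the brighter probe had 0.37 and 0.21, the opposite sign. The dimmer probe was called up at 1 mM 8 h, where the control channel of replicate 2 was not above background.

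Several collagen-processing genes had ratios with a small p that stayed short of 2-fold. At 5 mM 24 h these were Serpinh1, the collagen chaperone, at -0.70 (limma adjusted p = 0.000624), Pcolce, an enhancer of propeptide cleavage, at -0.91 (limma adjusted p = 0.000655), Fkbp14, a folding enzyme, at -0.94 and -0.86 on its 2 probes, P3h1, a prolyl hydroxylase, at -0.73 (limma adjusted p = 0.00154), and Plod2, a lysyl hydroxylase, at 0.83 (limma adjusted p = 4.7e-05). Ddr2, a receptor for fibrillar collagen, was at -0.85 at 8 h (limma adjusted p = 0.00032). These examples were picked after their values were seen.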

How the data were processed

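Gene expression was measured on 12 dual-colour Agilent arrays, 2 per condition with dyes exchanged between replicates. Per the labels and file headers, the authors scanned the arrays with Agilent Feature Extraction 9.5.3.1, which subtracts background and applies linear and LOWESS dye normalization, and deposited processed intensity values per spot together with a table of log10 ratios. Here the log2 ratio of MAA to control was taken from the processed intensities. Spots flagged as outliers were removed, spots of a probe were averaged, and arrays were not centred. Symbols came from RefSeq through the probe's accession (22072 of 41174 probes matched, 19102 did not); no probe's gene-name cell was itself a collagen symbol. No reference genome build for the arrays is given in the sources used here.

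A limma model with 1 coefficient per condition was fitted to all 41174 probes over the 12 arrays (6 residual degrees of freedom). Calls required an unadjusted p under 0.005 and a 2-fold (5 mM) or 1.5-fold (1 mM) change, and contrasts a Benjamini-Hochberg adjusted p under 0.05. Named genes were those with a called probe, plus Col1a1, Col1a2, Col3a1, Col4a1, Col4a2, Col5a1, Col5a2, Col6a1 and Col6a2, each by its probe of highest mean signal. Members and lists were chosen with earlier results of these data known. Channel signals were compared over time after Aquantile normalization. The number of arrays limits the precision. Alternatives were normexp background correction (offset 50) with loess, the deposited log10 table, centring, a filter on dim probes, keeping outlier spots, another call rule, the replicate number or slide as a block, fits within a concentration, another choice of probe and leaving out each array. Scripts were tested on simulated data. R 4.3.3 and limma 3.58.1 were used, and Python 3.11.15 with matplotlib 3.10.9 for figures.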

Additional observations from a re-analysis of the deposited data

Results flagged for a closer look

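The values below are differences in log2 MAA/control between doses or times that passed a limma adjusted p under 0.05 for a named collagen gene, both channels being measurable. Each is a difference of 2 means of 2 arrays, and whether both doses of a time shared control RNA is not stated.

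At 8 h, the ratio at 5 mM minus that at 1 mM was -1.28 for Col2a1 (limma adjusted p = 0.000986), -1.47 for Col3a1 (0.00459) and -0.89 for Col17a1 (0.00521). It was -0.41 for Col6a1 (0.0431) and 0.76 for Col11a2 (0.0421). At 24 h it was -0.76 for Col1a1 (limma adjusted p = 0.0152), -1.04 for Col1a2 (0.0352), -1.22 for Col2a1 (0.00111), -1.40 for Col3a1 (0.00577) and -0.60 for Col5a2 (0.0427). In the other classes it was 0.44 for Col4a1 (0.0386), -3.12 for Col14a1 (0.00581), -0.53 for Col17a1 (0.0352) and 0.57 for Col7a1 (0.0343).

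At 5 mM, the ratio at 8 h minus that at 3 h was -0.94 for Col2a1 (limma adjusted p = 0.00471), -0.97 for Col3a1 (0.0302) and 0.76 for Col7a1 (0.0192). From 8 to 24 h the ratio of Col2a1 was higher by 0.70 (0.00576), that of Col5a1 by 0.56 (0.0432) and that of Col6a1 by 0.63 (0.0105). Between 24 and 3 h the difference was -0.76 for Col1a1 (0.0092), -1.14 for Col1a2 (0.0155), 0.89 for Col11a2 (0.0167), 0.50 for Col6a1 (0.0143) and 0.82 for Col7a1 (0.00528). At 1 mM the ratio of Col2a1 was higher at 24 h than at 8 h by 0.64 (0.0402) and than at 3 h by 0.61 (0.025). Between 24 and 3 h at 1 mM the difference was 2.71 for Col14a1 (0.0255) and -0.99 for Col17a1 (0.0118).

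In these lists the genes of the major fibrils appear with the lower ratio at 5 mM, and Col2a1 does so through 1 of its 2 probes, since the dimmer probe had ratios near -0.2 at every time of 5 mM. Col14a1 is the one gene here with opposite signs at the 2 doses on all 4 arrays of 24 h and a mean past 1 log2 unit at each.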

How the results depend on the processing

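Of 21 called values of named genes, normexp background correction with loess left 8 called, with no change of sign. Centring and the deposited log10 table each lost 2, fits within a concentration 3 and the slide block 1. The cause was not tested.

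With normexp the collagen probes called numbered 4 at 5 mM 8 h, 1 at 5 mM 24 h, 0 at 1 mM 3 h, 1 at 1 mM 8 h and 2 at 1 mM 24 h, and the pathway probes called at least once 1. With an adjusted p in the call, 2 were called at 5 mM 3 h. At 1 mM 3 h, 0 were called from the deposited table or with a slide block, and 2 within 1 mM. Leaving out single arrays gave 1 to 2, 5 to 8 and 4 to 7 calls at 3, 8 and 24 h of 5 mM, and 1 to 2, 1 to 2 and 2 to 7 at 1 mM. The pathway probes called once or more were 3, or 3 to 5 without an array.

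The fibrillar minus network median at 5 mM 24 h was -0.444 with normexp, -0.626 from the deposited table, -0.634 over probes above background, -0.655 with a slide block and -0.644 over all probes of a gene. Without an array it ranged from -0.736 to -0.63 at 24 h, from -0.594 to -0.429 at 8 h and from -0.208 to 0.0918 at 3 h. At 3 h it reversed, to 0.0918, without replicate 2 of 5 mM 3 h.

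The dose difference at 3 h covered 5 collagen probes from the deposited table, 4 after a filter on dim probes, and 0 when centred, with a slide block or without any 1 array. At 8 h it covered 5 when centred and 4 to 6 without an array, and at 24 h 4 when centred and 3 to 12 without an array. At 5 mM the count for 8 minus 3 h was 2 centred, 8 filtered, 0 with a slide block, 0 within 5 mM and 1 to 5 without an array. For 24 minus 8 h it was 3 centred, 10 filtered, 0 within 5 mM and 2 to 6 without an array. For 24 minus 3 h it was 14 filtered, 3 within 5 mM and 3 to 9 without an array. At 1 mM, a comparison whose alternatives were chosen after seeing the data, the count for 24 minus 8 h was 3 with normexp, 4 from the deposited table, 4 filtered, 0 centred, 0 with a slide block, 0 within 1 mM and 0 to 1 without an array. For 24 minus 3 h it was 1 centred, 0 within 1 mM and 0 to 3 without an array, and for 8 minus 3 h 0 to 0.

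Same-numbered arrays, which share a dye orientation, had deviations that correlated at 0.075 to 0.514 over 15 pairs, 14 of them over 0.1. The numbers were to be taken as pairs only if all 15 were over 0.1. With the replicate block the dose difference at 8 h covered 14 probes, and the time differences 12, 14 and 16 at 5 mM (8 minus 3 h, 24 minus 8 h, 24 minus 3 h) and 4 and 9 at 1 mM (24 minus 8 h, 24 minus 3 h). Signals near background limit Col17a1, Col23a1 and the dim second probes.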
